A study of Mus musculus with 24 samples.

Results

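Ribosomal protein genes encode the proteins of the large subunit (Rpl and Rplp symbols) and the small subunit (Rps symbols) of the cytoplasmic ribosome. The members were taken by symbol, as every protein-coding gene named Rpl or Rps plus a number, with an optional ending a, l or x, or Rplp0, Rplp1 and Rplp2, and without the Rps6k kinases. The pattern found 81 of 21883 protein-coding genes in the RefSeq table of the mm10 assembly, 51 of the large and 30 of the small subunit, on 19 chromosomes. The values described are the width and the within-list score rank of the H3K27ac peak at an end of each gene, in 4 peak lists from mouse embryonic limb buds. H3K27ac is an acetylation of histone H3 that marks active promoters and enhancers.

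The groups, with 1 library each, were E11.5 control, E12.5 control, E11.5 Sox9null and E12.5 Sox9cKO by their sample titles, where E gives the embryonic day. Sox9 encodes the transcription factor required for cartilage formation. The labels name neither the alleles, the driver of the conditional deletion, nor how many embryos were pooled, and the kind of Sox9 deficiency cannot be told apart from the stage. For the 2 Sox9-deficient lists, title and deposited name contradict each other. Each is called by its title ("labelled"), and the median width ratios and rank differences within a stage are also given under the other assignment. The series has 24 samples, of which 20 were not analysed here. With no replicates, nothing was tested between conditions, and every value describes these libraries alone.

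Each ribosome carries a copy of nearly every ribosomal protein, and growing cells make these proteins in matched amounts. Their genes are short, active in every tissue and driven by promoters without a strict requirement for a TATA box. Their messenger RNAs typically begin with a run of pyrimidines, the terminal oligopyrimidine element, through which growth signals control their translation. In the mouse, mutations of single members such as Rpl38, Rpl24, Rps19 and Rps20 give skeletal, tail, limb or pigment phenotypes, although the proteins are needed in all cells.

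RefSeq start windows of the mm10 assembly, running from 250 bases before to 50 bases after a transcription start, were matched for 61 of the 81 members, with 73 windows. The motif CTTTCC, searched on the sense strand as part of an oligopyrimidine start, lay from 5 bases before to 16 bases after a start in 9 of the 61 (14.8%), against 0.96% of 17491 genes with a window. A pyrimidine run of 5 or more bases from the first transcribed base was found in 27.9% of members and 4.64% of all genes. The starts of those 9 members are shown, and Rpl39l is added as a paralog with CTTTCC near its start and no peak in any list. A CTTTCC near the start is not itself an oligopyrimidine start. Rpl13a and Rpl18, for example, have no pyrimidine run of 5 or more bases from the first transcribed base. Each stretch runs 5′ to 3′ from 10 bases before the annotated start to 20 bases after it, with CTTTCC in capitals.
Rpl13a (chr7:45128726-45128755, minus strand): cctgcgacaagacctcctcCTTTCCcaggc
Rpl15 (chr14:18270967-18270996, minus strand): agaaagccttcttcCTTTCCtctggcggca
Rpl18 (chr7:45718061-45718090, plus strand): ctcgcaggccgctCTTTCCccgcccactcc
Rpl28 (chr7:4792955-4792984, plus strand): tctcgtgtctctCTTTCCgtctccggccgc
Rpl35 (chr2:39005112-39005141, minus strand): ccgccCTTTCCtctttctctcgaaccaggc
Rpl35a (chr16:33056472-33056501, plus strand): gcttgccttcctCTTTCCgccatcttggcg
Rpl38 (chr11:114668570-114668599, plus strand): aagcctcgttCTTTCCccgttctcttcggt
Rpl39l (chr16:10170218-10170247, plus strand): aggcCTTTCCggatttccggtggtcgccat
Rps10 (chr17:27635225-27635254, minus strand): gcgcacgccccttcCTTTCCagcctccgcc
Rps27 (chr3:90213629-90213658, minus strand): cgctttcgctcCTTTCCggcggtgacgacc

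All of these except Rpl39l had a peak over the start in every list. Other motifs were searched on both strands in the same windows. The ETS/GABP motif CCGGAAG was present in 24 of 61 members (39.3%) against 12.9% of all genes, and the M8 core CTCGCGAG in 7 of 61 members against 1.41% of genes. The SP1 motif GGGCGG was found in 59.0% of members and 49.2% of genes, the YY1 motif AAGATGGC in 5 members of 61 and 3.57% of genes, the NRF1 core GCATGCGC in 3 and 3.93%, and TATAAA in 7 and 14.8%. These are letter matches and were not tested as binding sites. Each motif was counted on its own, and matches of different motifs may share bases.

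The 150 bases before the start are shown for members whose peaks differed most between lists (Rps10, Rps15a, Rpl41 and Rpl13a), for Rpl38, and for Rpl10l and Rpl3l, which had no peak over their start. Capitals mark the ETS/GABP, SP1, YY1 and M8 motifs spelled out above, on either strand.
Rpl38 (chr11:114668430-114668579, plus strand): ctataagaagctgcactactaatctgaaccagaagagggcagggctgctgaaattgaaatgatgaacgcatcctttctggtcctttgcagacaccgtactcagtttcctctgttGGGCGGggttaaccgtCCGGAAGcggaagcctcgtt
Rps10 (chr17:27635245-27635394, minus strand): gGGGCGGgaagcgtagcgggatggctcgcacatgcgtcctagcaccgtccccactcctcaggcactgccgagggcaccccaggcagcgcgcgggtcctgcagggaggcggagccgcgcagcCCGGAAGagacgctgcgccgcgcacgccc
Rps15a (chr7:118116148-118116297, minus strand): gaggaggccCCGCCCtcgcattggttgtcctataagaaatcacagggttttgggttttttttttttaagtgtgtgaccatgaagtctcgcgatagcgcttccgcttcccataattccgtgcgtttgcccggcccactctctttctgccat
Rpl41 (chr10:128549169-128549318, minus strand): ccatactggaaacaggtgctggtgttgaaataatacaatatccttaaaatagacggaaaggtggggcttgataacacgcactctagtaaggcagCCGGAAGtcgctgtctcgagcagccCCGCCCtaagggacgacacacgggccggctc
Rpl13a (chr7:45128746-45128895, minus strand): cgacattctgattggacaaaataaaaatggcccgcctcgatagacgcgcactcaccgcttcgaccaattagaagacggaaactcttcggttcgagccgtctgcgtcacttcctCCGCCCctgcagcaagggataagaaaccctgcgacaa
Rpl10l (chr12:66284402-66284551, minus strand): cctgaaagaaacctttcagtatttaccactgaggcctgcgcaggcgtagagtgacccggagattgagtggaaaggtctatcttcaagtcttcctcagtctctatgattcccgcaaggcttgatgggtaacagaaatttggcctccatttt
Rpl3l (chr17:24727676-24727825, plus strand): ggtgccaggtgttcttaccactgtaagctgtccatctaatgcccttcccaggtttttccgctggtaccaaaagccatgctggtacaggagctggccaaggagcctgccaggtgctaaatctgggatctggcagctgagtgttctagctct

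The promoters of Rpl38, Rps10 and Rpl41 each hold 1 ETS/GABP and 1 SP1 motif in this stretch, and Rps15a and Rpl13a 1 SP1 motif. Rpl10l and Rpl3l hold 0 of the 4 motifs, which says only that these letters are absent from the stretch shown.

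Within 1000 bp of a gene end, a peak was present for 78 of 81 members in each of the 4 lists (96.3%, Wilson 95% interval 89.7 to 98.7%, counting error only). Over all protein-coding genes the share was 56.9% in the E11.5 control, 53.3% in the E12.5 control, 51.9% for the labelled Sox9null library and 57.7% for the labelled Sox9cKO library. The same 78 genes were marked throughout: 78 members had a peak in all 4 lists, 0 in only some of them, and 3 in none. All 30 small-subunit members were marked. The 3 genes without a peak were Rpl10l, a retrogene paralog known for expression in the testis, Rpl39l, the testis-enriched paralog of Rpl39, and Rpl32l. Of the 6 members whose symbol ends in l, the other 3 (Rpl36al, Rps27l and Rpl3l) had peaks.

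The peak assigned to Rpl3l, the muscle paralog of Rpl3, did not lie at its start. It covered the right end of the gene (chr17:24727826-24736143), held the end of the neighbouring gene Msrb1, and reached neither of the 2 annotated Rpl3l starts in any list. Its widths were 1554, 1566, 1537 and 1650 bp, in the order used from here on, which is E11.5 control, E12.5 control, labelled Sox9null and labelled Sox9cKO. At Rpl18 and Rpl19 as well, the peak near the gene end was not the peak over the annotated start. Rpl18 (chr7:45715467-45720835) had peaks of 1684, 1466, 1203 and 1401 bp near its left end, whereas the peak over its annotated start reached 1251, 1201, 1148 and 1159 bp upstream and 1432, 1375, 1488 and 1466 bp downstream. At Rpl36 the labelled Sox9null peak lay at the left end of the gene (chr17:56608846-56610691). The peaks of the other lists lay at its right end, so its widths come from different peaks. In all, 22 members had a peak that also held the end of another protein-coding gene.

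Limb mesenchyme markers were looked up as a check of the tissue. Of 12 markers (among them Prrx1, Twist1, Msx1 and Hand2), 12, 11, 11 and 12 had a gene-end peak, the missing one being Tbx5, the forelimb regulator. Endothelial markers had a peak in 2, 0, 0 and 3 of 4, erythroid markers in 2, 1, 1 and 3 of 4, muscle markers in 1, 0, 0 and 1 of 4, and ectoderm markers in 2, 1, 0 and 1 of 4. Of 6 markers of other organs, 1 (Apoa2) had a peak in each list. The part of other cell types in the results below was not tested. The lists held 36045, 32821, 28419 and 36937 peaks with median widths of 1141, 1707, 1778 and 1332 bp. The read depth is unknown.

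Gene-end peaks of ribosomal protein genes were wide and uniform. Median widths over the 78 members were 2374.5, 2411, 2524.5 and 2609 bp, so the lists differed less here than in the median width of all their peaks. The medians over all protein-coding genes with a gene-end peak were 1916, 2139.5, 2142 and 2087 bp. The spread among members was also smaller, with an SD of log2 width of 0.29, 0.28, 0.31 and 0.38, against 0.71, 0.68, 0.66 and 0.70 for all genes. Large- and small-subunit genes had close median widths, with 2326.5, 2411, 2523.5 and 2591 bp for 48 large-subunit members and 2457, 2422, 2531 and 2617.5 bp for 30 small-subunit members.

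**Figure D1:**
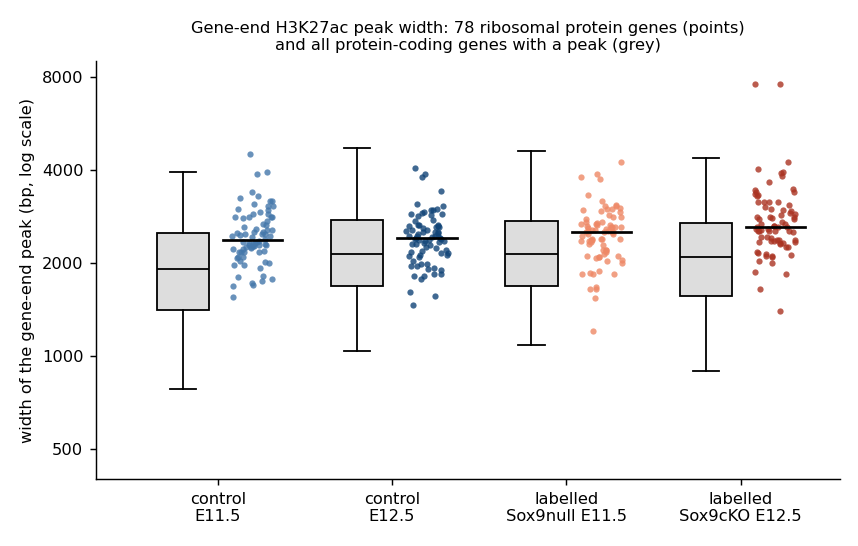
Width of the gene-end H3K27ac peak in bp on a log scale, for each of 78 ribosomal protein genes (points, with the median as a line) and for all protein-coding genes with a peak (grey boxes: quartiles, with whiskers from the 5th to the 95th percentile). The medians of the members, from 2374.5 to 2609 bp, lie above the grey medians in all 4 lists.

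Most members had similar widths in the 4 lists. The ratio of a member's widest to its narrowest peak over the 4 lists had a median of 1.201, against 1.227 over 10937 genes with a peak in all 4, and exceeded 1.5 in 5 of 78 members (6.41%) against 17.3% of genes. Rps28 had the smallest ratio, with 2565, 2655, 2657 and 2539 bp; it was chosen after its values were seen. Rps27 had 2166, 1984, 2102 and 2138 bp. For the reference gene Rplp0, the stalk protein often used to normalise expression, the widths were 1702, 1783, 1673 and 2035 bp. Rps18, another common reference gene, had 2976, 2519, 2825 and 3350 bp. The labelled Sox9cKO value is the highest of the 4 in both reference genes, and the other 3 lie within a narrow range only for Rplp0.

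**Figure D2:**
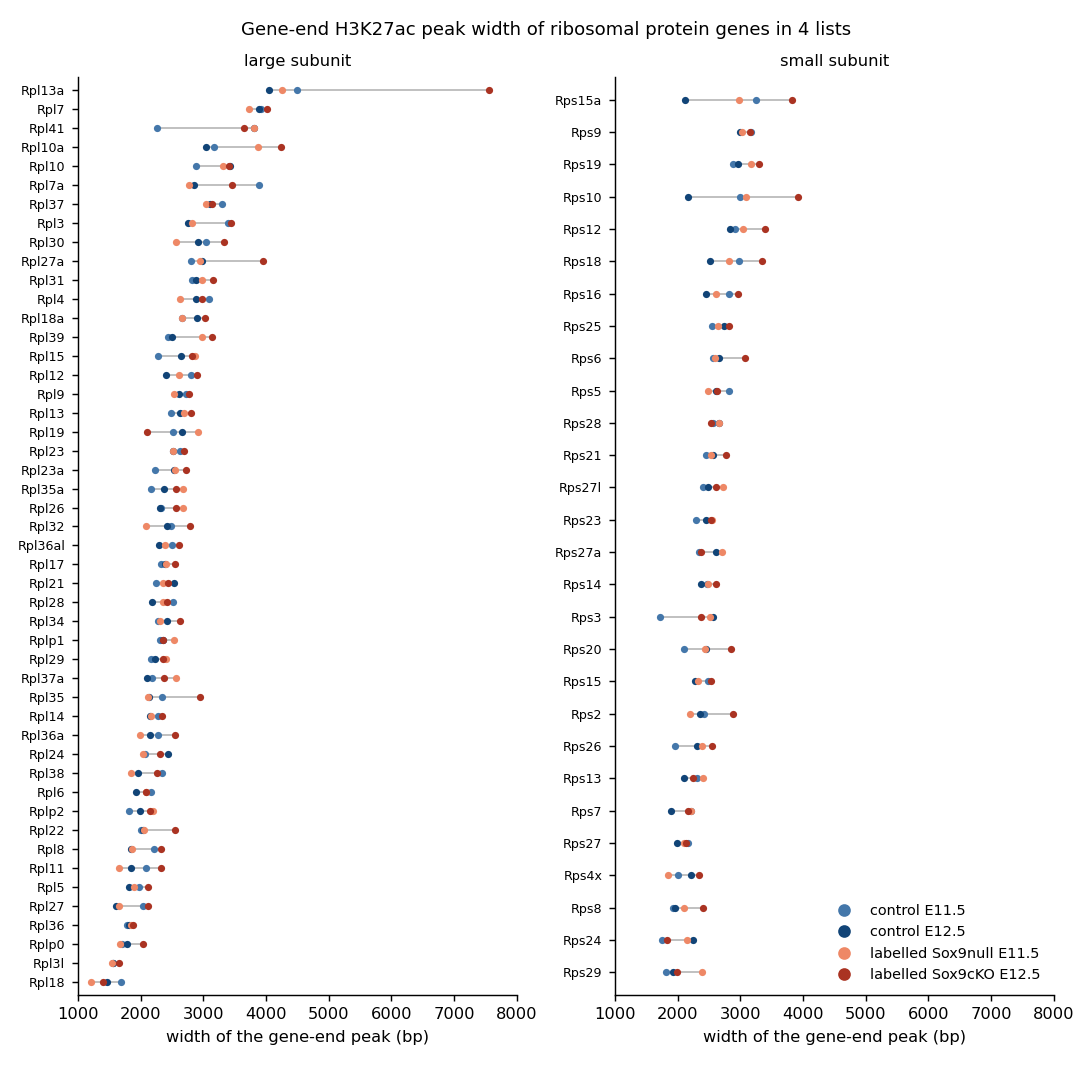
Width of the gene-end peak in bp (horizontal axis) of the ribosomal protein genes named on the vertical axis, in the 4 lists (coloured points), with a grey line from the narrowest to the widest. Most lines are short, and long ones belong to Rpl13a, Rps10, Rps15a and Rpl41.

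Members with a ratio over 1.5 included Rpl13a, Rps10, Rps15a and Rpl41. Rpl13a had 4501, 4056, 4249 and 7564 bp, and near its ends 2, 2, 2 and 1 peaks were listed, so the greatest width is that of stretches listed apart in the other lists. Rpl41, the smallest ribosomal protein, had 2257, 3806, 3804 and 3655 bp. Its E11.5 control value is the low one, and in that list 2 peaks lie near the gene ends, where the other lists have 1. Rps10 had 3000, 2168, 3089 and 3916 bp and Rps15a 3252, 2125, 2975 and 3822 bp, each from 1 peak per list. In both genes the E12.5 control was lowest and the list labelled Sox9cKO highest.

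Peaks extended further into the gene than upstream of it. Over the 56 of 61 members whose first annotated start lay in a peak, the median reach upstream was 925, 1036, 1103 and 1000 bp and downstream 1439, 1397.5, 1409 and 1617 bp. The downstream side was the longer in 49, 45, 43 and 47 of 56 members, and in 72.5%, 66.0%, 64.2% and 72.6% of all genes with a start in a peak. Over all genes the median downstream reach was 1089, 1131, 1128 and 1159 bp. Peaks covered a median of 51.4%, 47.0%, 48.0% and 56.3% of the gene body of the 81 members, against 2.36%, 2.12%, 1.76% and 2.70% over all genes. The median over all genes includes those without a gene-end peak and was not matched for gene length. Rpl41, Rps27 and Rps29 were covered over 100% of their length in every list.

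**Figure D3:**
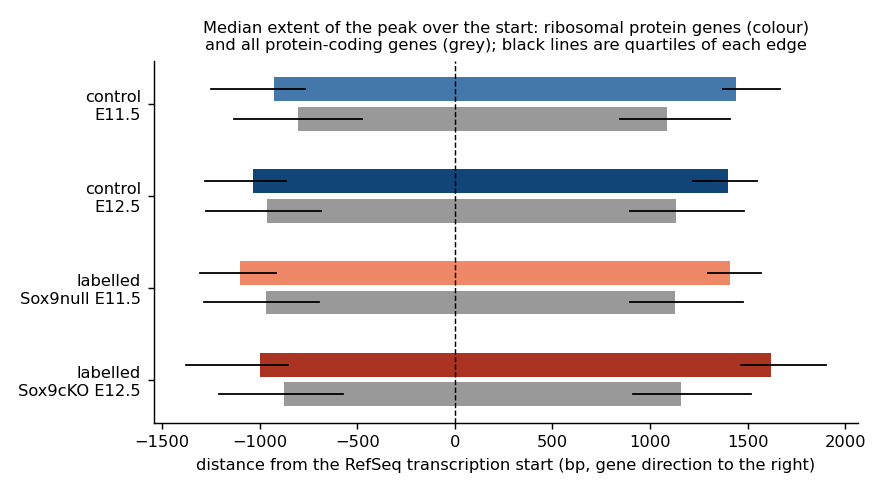
Median reach in bp of the peak that covers the RefSeq transcription start, upstream (left of the dashed line) and downstream (right), for ribosomal protein genes (coloured bars) and all protein-coding genes (grey bars), with the quartiles of each edge as black lines. The downstream edge of ribosomal protein genes lies at 1397.5 to 1617 bp, beyond the grey bars at 1089 to 1159 bp.

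Peaks of ribosomal protein genes ranked high within each list, yet many reached a ceiling of the score. The deposited score has a tied value of 3100 that 1588, 1325, 702 and 2772 peaks share, with only 134, 112, 51 and 159 peaks above it. At or above this value were 19, 6, 1 and 47 of the 78 members (24.4%, 7.69%, 1.28% and 60.3%), against 14.1%, 11.51%, 6.23% and 24.3% of genes with a gene-end peak. The median percentile of the members among all peaks of their list was 92.8, 89.4, 87.8 and 95.8, the last being the percentile of the tie itself. Over all gene-end peaks it was 81.7, 78.3, 75.6 and 82.3. The lists differ in length, so these percentiles show no change between lists.

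Ranks were therefore also counted among the 10937 genes with a gene-end peak in all 4 lists, where the median gene has a percentile of 50 by definition. The members had median percentiles of 75.8, 71.9, 72.0 and 85.3, the last again at the tie. Rpl13a had the highest mean percentile of the list ranks and was at 3100 in all 4 lists. Rps14 and Rpl4 followed, with scores of 3100, 3217, 2640 and 3100 for Rps14 and 3100, 3100, 2991 and 3100 for Rpl4. The lowest mean ranks belonged to Rpl3l (scores 305, 163, 171 and 382) and Rpl18 (385, 179, 162 and 452), whose gene-end peaks are not those over their starts, and to X-linked Rpl36a (1076.5, 688, 343 and 1233).

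Other genes of protein synthesis ranked lower, except the elongation factors. The median percentiles in the common set were 91.4, 82.5, 81.9 and 85.3 for 6 genes listed as translation elongation factors. They were 62.1, 53.4, 51.9 and 59.9 for 51 genes called initiation factors here. These were taken by symbol alone, as Eif plus a number with any ending, so not every one need be an initiation factor. For 41 ribosome biogenesis genes, which build the ribosome in the nucleolus, the medians were 47.7, 41.9, 39.6 and 45.9. Mitochondrial ribosomal proteins, encoded in the nucleus for the ribosome of another compartment, had 43.1, 41.0, 44.4 and 41.5 (75 genes). For 35 proteasome subunits, a complex of protein breakdown, the values were 49.3, 38.2, 41.1 and 48.2. Median widths of mitochondrial ribosomal protein genes were 1768, 1914.5, 1929.5 and 1896 bp, and their peaks were present in 76, 76, 76 and 77 of 78 genes.

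**Figure D4:**
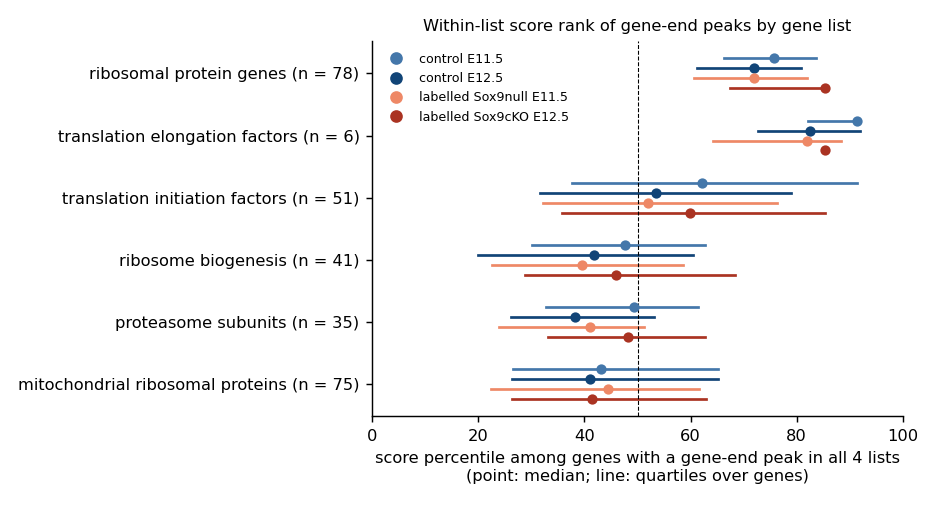
Within-list score percentile of gene-end peaks among the genes with a peak in all 4 lists (horizontal axis), as the median (point) and quartiles (line) over the genes of each list of genes, in the 4 peak lists (colours). Ribosomal protein genes have medians from 71.9 to 85.3, and mitochondrial ribosomal protein genes from 41.0 to 44.4.

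Between the control stages, the deposited widths of peaks at ribosomal protein genes showed no common direction. Of 78 members 37 were wider and 41 narrower, with a median log2 ratio of -0.03, whereas 67.7% of 11391 genes were wider, with a median of 0.10. The members' median was -0.18 with widths divided by the median gene-end width of each list, and -0.61 with widths divided by the median width of all its peaks. Over 1.5-fold wider was 1 member, Rpl41, against 8.22% of genes, and over 1.5-fold narrower was 1, Rps15a, against 1.44%. Rps3, a small-subunit protein at the entry of messenger RNA, had 1726 bp at E11.5 and 2563 bp at E12.5. Rps24 had 1744 and 2250 bp. On the narrower side, Rpl7a had 3890 and 2854 bp and Rpl27 2032 and 1608 bp. The upstream edge lay further out at E12.5 in 39 of 56 members (69.6%, median 79 bp), close to the 71.5% of all genes (median 100 bp). The downstream edge lay further out in 15 members (26.8%, median -91 bp), against 54.8% of genes (median 23 bp).

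Score ranks in the common set were lower at E12.5 for 52 of 78 members, with a median difference of -4.80 points, against 0.55 over all genes. Over 10 points lower were 22 members, against 17.4% of all genes, and over 10 points higher were 2, Rplp1 and Rpl23a, against 15.1%. Rpl38, whose loss in mice alters the body axis, had percentiles of 78.2 and 50.1 in the controls, on scores of 2540 and 978. Rpl11, which with Rpl5 binds the p53 regulator Mdm2 when ribosome assembly fails, had 91.3 and 72.1, and Rpl5 itself 73.9 and 69.1. By contrast the acidic stalk protein gene Rplp1 had 34.4 and 52.2. Of the other lists of genes, elongation factors (median -5.29), initiation factors (-5.08), proteasome subunits (-5.55) and biogenesis genes (-6.26) also had negative medians, and mitochondrial ribosomal proteins -0.54.

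In the comparison of the list labelled Sox9null with the E11.5 control, the deposited widths at ribosomal protein genes were evenly divided. There were 39 wider and 39 narrower members, with a median log2 ratio of 0.001, against a median of 0.08 and 65.2% wider over 11164 genes. Divided by the median gene-end width or by the median width of the list, the members' median was -0.16 or -0.64. Rpl41 was the only member over 1.5-fold wider (7.34% of genes) and 0 were over 1.5-fold narrower (1.93%). Rps29 had 1809 bp in the control and 2383 bp in the labelled Sox9null list, and Rpl15 2281 and 2865 bp. Rpl38 had 2339 and 1846 bp and Rpl11 2086 and 1650 bp. The upstream edge lay further out in 43 of 56 members (76.8%, median 122 bp), close to the 70.0% of all genes (median 101 bp). The downstream edge lay further out in 19 members (33.9%, median -33 bp), against 53.3% of genes (median 16 bp). Ranks in the common set were over 10 points lower for 20 members (17.9% of genes) and over 10 points higher for 3 (15.7%), with a median of -3.64 points, against -0.14 over all genes. Medians of the related groups were -8.86 for elongation factors, -7.72 for proteasome subunits, -6.57 for initiation factors, -4.25 for biogenesis genes and -0.91 for mitochondrial ribosomal proteins. The lowest member was Rpl8, named after its values were seen, at -37.4 points. Rps27l, a paralog induced by p53, and Rpl19 and Rpl41 were the 3 higher ones. The Rpl19 rank is that of its gene-end peak, not of the peak over its annotated start. With the lists assigned by their deposited names, the median log2 width ratio at E11.5 was 0.14 in place of 0.001, and the median rank difference in the common set was 1.58 points in place of -3.64, a turn of direction.

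At E12.5, most ribosomal protein gene peaks were wider in the list labelled Sox9cKO than in the control. Of 78 members 67 were wider and 11 narrower, with a median log2 ratio of 0.13 (1.09-fold), against 53.1% wider and a median of 0.02 over 11436 genes. Wider were 41 of 48 large-subunit and 26 of 30 small-subunit members. Over 1.5-fold wider were 4 members, among them Rpl13a, Rps10 and Rps15a, against 3.56% of genes, and 0 were over 1.5-fold narrower, against 4.22%. Rpl10a, the protein of the L1 stalk, had 3048 and 4244 bp. On the narrower side were Rpl19 (2661 and 2103 bp), Rps24 (2250 and 1838 bp) and Rps27a (2613 and 2370 bp), the last encoding ubiquitin fused to a ribosomal protein. The Rpl19 widths are those of its gene-end peak, which does not cover an annotated start. The peak over the first annotated Rpl19 start reached 1277 and 1203 bp upstream and 1488 and 1460 bp downstream. The downstream edge lay further out in 52 of 56 members (92.9%, median 220.5 bp), against 60.3% of genes (median 53 bp). The upstream edge lay further out in 24 (42.9%, median -21.5 bp), close to the 43.0% of genes (median -29 bp). Rps10 and Rps15a were longer on both sides. At Rps10 the upstream reach was 1012 and 1871 bp and the downstream reach 1155 and 2044 bp, and at Rps15a they were 935 and 1963 bp and 1189 and 1858 bp.

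Ranks in the common set were over 10 points higher in the list labelled Sox9cKO for 25 members (17.4% of genes) and over 10 points lower for 1, Rps14 (13.5%), with a median of 5.88 points, against 0.04 over all genes. The tie limits these ranks, since the 47 members at or above it share a percentile of 85.3 or more. In the E12.5 control the tie stands at 93.5, so Rpl4, at 3100 in both lists, differs by -8.17 points. Rps14 scored 3217 in the control and 3100 in the labelled Sox9cKO list. Its lower percentile therefore cannot be told apart from this effect of the tie. Rpl38 went from 50.1 to 85.3, and Rps18 from 67.8 to 85.3. Ribosome biogenesis genes had a median difference of 8.59 points, proteasome subunits 6.82, initiation factors 4.36, elongation factors 2.81 and mitochondrial ribosomal proteins 2.79. With the deposited names, the median log2 width ratio at E12.5 was 0.02 in place of 0.13, and the median rank difference in the common set 0.32 points in place of 5.88.

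**Figure D5:**
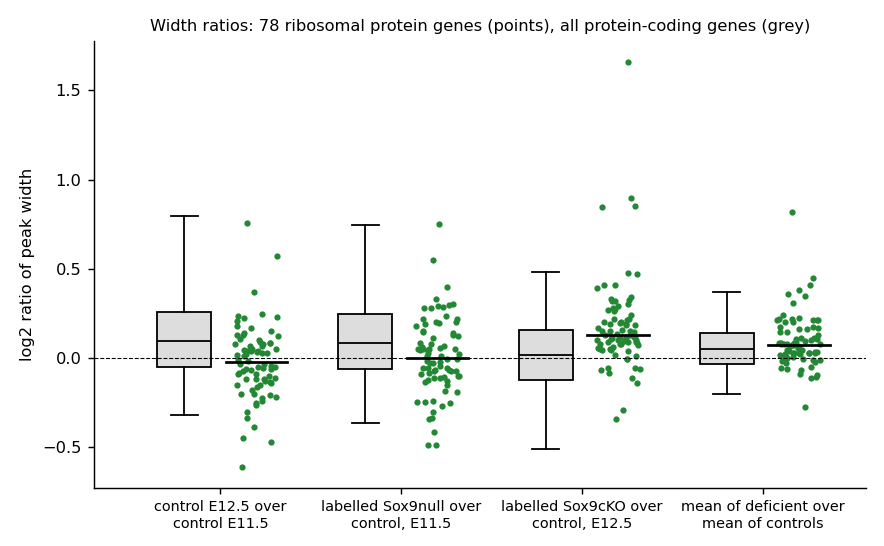
Log2 ratio of gene-end peak width (vertical axis) for 4 comparisons, for 78 ribosomal protein genes (points, with the median as a line) and all protein-coding genes (grey boxes: quartiles, with whiskers from the 5th to the 95th percentile). The members' median lies near 0 in the first 2 comparisons and at 0.13 in the third.

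Both Sox9-deficient lists together were compared with both controls, which does not depend on the assignment. The mean log2 ratio of width had a median of 0.07 over the members and 0.05 over all genes, and turned to -0.066 over the members when each width was divided by the median width of its list. The members' median was 0.143 without the labelled Sox9null list and 0.0198 without the labelled Sox9cKO list. In 23 of 78 members (29.5%) both deficient widths lay above both control widths, against 20.3% of genes, and in 1 (1.28%), Rpl18, both lay below, against 6.85%. The 23 included Rps19 (2884, 2963, 3178 and 3299 bp), which is mutated in Diamond-Blackfan anaemia, and Rpl39 (2440, 2508, 2987 and 3146 bp). The gap between the groups is wide for Rpl39 and narrower for Rps19. Rpl36 is also among the 23, although its labelled Sox9null width is that of a peak at the other gene end. The Rpl18 widths are those of its gene-end peak, not of the peak over its annotated start. In both deficient lists the peak over the Rpl18 start reached less far upstream than in both controls (1148 and 1159 against 1251 and 1201 bp). It reached further downstream (1488 and 1466 against 1432 and 1375 bp). Grouping by stage as titled gave 13 members (16.7%) wider in both E12.5 lists and 2 (2.56%) narrower, against 22.9% and 4.92% of genes. Grouping by stage as in the deposited names gave 7 (8.97%) wider and 32 (41.0%) narrower, against 27.9% and 17% of genes. That grouping sets the E12.5 control and the labelled Sox9null list on one side, and the members narrower there include Rpl11, Rpl38 and Rpl7a.

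Between lists, the score ranks of the 78 members were most alike for the pair of the E12.5 control and labelled Sox9null. Spearman's rho over members, a description of genes within shared libraries, was 0.95 for score and 0.82 for width in that pair. In the other 5 pairs it ran from 0.70 to 0.79 for score and from 0.71 to 0.82 for width. The interquartile range of the log2 width ratio was 0.15 in that pair and 0.19 to 0.25 in the others. Over 10937 genes the same pair had a rho of 0.96 for score and 0.91 for width, followed by the pair of the E11.5 control and labelled Sox9cKO at 0.95 and 0.88. Over the members this last pair had 0.76 for score and 0.82 for width, and 47 members share or exceed the tied score in the labelled Sox9cKO list.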

How the data were processed

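The data were 4 deposited H3K27ac peak lists from limb buds, 1 per sample. The peak names in the deposited lists carry the prefix of the MACS peak caller. Per the submitters' processing notes mm10 was the build, and CASAVA 1.8 and deepTools are named as tools. The caller's version and settings, and whether an input was used, were not given in the sources used here. The deposited score per peak has no stated meaning and was used as the authors' own, only to rank peaks within a list. Depth is unknown, and peak number and width can move with it.

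Genes came from a RefSeq table of GRCm38.p6 and start windows from a RefSeq sequence table. For each gene the highest-scored peak within 1000 bp of either end was taken. Percentiles use mid-ranks. With 1 library per group there was no test: a width ratio over 1.5 or a rank difference over 10 points is called. Intervals are Wilson 95% intervals. Motif shares count genes with a match in any window, and edges use the first start of a gene.

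Named members were those without a peak in a list, the 5 largest rises and falls of width per comparison, the 3 highest and lowest mean ranks, and fixed members (among them Rplp0, Rpl38, Rps19, Rpl11, Rpl5 and the paralogs). Some items that this rule names are not reported here. The members, lists and rules were chosen with earlier results of these data known. Percentiles in the common set were added after the data were seen. Alternatives covered the window, the start alone, the choice of peak, stricter lists, the member pattern, shared peaks, the exchanged lists, scaling, and leaving out a list. Widths planted in a copy of a list checked the scripts. The scripts ran on Python 3.11.15 with pandas 2.3.3, numpy 2.4.6 and scipy 1.17.1, and figures were drawn with matplotlib 3.10.9.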

Additional observations from a re-analysis of the deposited data

How the results depend on the processing

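Of 246 values recomputed for 20 results under the alternatives, 220 stayed within the exact binomial 95% interval of the median over members (or within 1.5 times a count), 23 moved out of it and 3 reversed. That interval covers the spread over genes, not between libraries. The other windows, the start alone, the widest peak and the changes of membership moved none of them. With the start alone 57 members had a peak in each list, in place of 78, which the allowance for counts labels as unmoved. The stricter lists also moved none but could hardly do so, since each peak kept its width and its full-list percentile. There a value could change only where a member lost its peak.

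With the Sox9-deficient lists exchanged, the median percentile difference turned from -5.26 to 0.96 at E11.5 and from 4.80 to -1.22 at E12.5. These percentiles come from lists of different lengths and show no change, and in the common set the exchanged values were 1.58 and 0.32. The median log2 width ratio became 0.136 at E11.5 and 0.018 at E12.5, the median percentile 95.8 for Sox9null and 87.8 for Sox9cKO, and the median width 2524.5 bp for Sox9cKO. With width divided by the median width of each list, the median log2 ratios were -0.61 between controls, -0.64 at E11.5, 0.49 at E12.5 and -0.066 for both deficient lists, the last a reversal from 0.07. Divided by the median gene-end width, they were -0.18 between controls, -0.16 at E11.5 and 0.012 for both deficient lists. Leaving out 1 list at a time gave 0.0198 (without labelled Sox9cKO) to 0.143 (without labelled Sox9null) for that ratio and -3.43 to 2.72 points for the percentile difference of both deficient lists, which was -0.69 with all lists and above 0 without the E11.5 control (1.52) or labelled Sox9null (2.72). Counted in the common set, median percentiles were 75.8, 71.9, 72.0 and 85.3, and the differences -3.64 at E11.5 and 0.265 for both deficient lists. The reversals follow from the exchange of the lists and from the scaling by list width. Why the lists differ in median width was not tested. No paired analysis was possible because the labels give no replicate numbers and each group has 1 library.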

Other observations

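Among 7 ribosomal symbols that the pattern leaves out, 6 had a gene-end peak in all 4 lists. Rpsa, a small-subunit protein also known as a laminin receptor, had widths of 3027, 3211, 2775 and 3030 bp. Rps3a1, a core small-subunit protein, had 1955, 2617, 2348 and 3075 bp. Fau, which encodes a ribosomal protein fused to a ubiquitin-like protein, had 2056, 2080, 2272 and 2409 bp. The paralogs Rpl22l1 and Rpl7l1 had 1851, 2170, 2048 and 2052 bp and 2138, 2247, 2212 and 2087 bp. Rps27rt, a retrogene of Rps27, had no peak in any list.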
